A study of Mus musculus with 24 samples.

Results

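The skeletal muscle lineage genes described here are 10 genes named for their place in the lineage, out of 49452 genes in the deposited table: Myod1, Myog, Des, Myh3, Actc1, Chrna1, Tnnc1, Tnnt1, Mylpf and Myl1. They were followed by poly-A RNA-Seq in 24 libraries from primary stromal-vascular fraction (SVF) cells, the precursor-containing cells that stay behind when fat tissue is digested and the lipid-filled adipocytes are removed. The 8 groups of 3 libraries combined the depot (interscapular brown adipose tissue, BAT, or visceral perigonadal white adipose tissue, vWAT), the siRNA (siH19 against the lincRNA H19, or the non-targeting siCtrl) and the day (d0, before adipogenic induction, or d3, at day 3 of it). All cells came from male C57BL/6 mice of 6 to 8 weeks with no transgene, were grown in the same serum-rich medium and received their siRNA by nucleofection. BAT was digested with an additional protease and could be pooled from several animals. Its induction medium held indomethacin and triiodothyronine, and the medium that followed held triiodothyronine where that of vWAT held rosiglitazone, so that at d3 depot and medium cannot be told apart. The labels do not say whether the 3 replicates of a group came from separate animals or cultures, and p-values then measure the spread between these libraries, which may be technical.

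Skeletal muscle forms when mononuclear myoblasts leave the cell cycle, fuse into multinucleated fibres and build sarcomeres. Myod1 and Myog encode basic helix-loop-helix transcription factors that bind the E-box, a short DNA motif, and set the myogenic programme in motion, Myod1 in myoblasts and Myog as they begin to differentiate. The other members are products of that programme. Des encodes desmin, the intermediate filament that ties sarcomeres together and that is also made by smooth muscle and pericytes. Myh3 encodes embryonic myosin heavy chain, Mylpf and Myl1 encode light chains of fast muscle myosin, Actc1 encodes the alpha-actin that developing skeletal muscle shares with the heart, Tnnc1 and Tnnt1 encode the slow-muscle troponins C and T, and Chrna1 encodes a subunit of the acetylcholine receptor of the neuromuscular endplate. Brown adipocytes and skeletal muscle are known to share precursors in the dermomyotome, and interscapular BAT lies against the muscles of the back.

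On the build of the files, GRCm38, the members are spread over 5 chromosomes. Myog lies at chr1:134289989-134292548, Des at chr1:75360329-75368579 and Myl1 at chr1:66924295-66945404. Chromosome 2 carries Actc1 at chr2:114047282-114053548 and Chrna1 at chr2:73563215-73580338. Chromosome 7 carries Myod1 at chr7:46376474-46379099, Tnnt1 at chr7:4504570-4516382 and Mylpf at chr7:127208890-127214298. Myh3 lies at chr11:67078300-67102291 and Tnnc1 at chr14:31208312-31211729. Myl1, Actc1, Chrna1 and Tnnt1 are on the minus strand and the other 6 members on the plus strand.

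At d0 9 of the 10 members were higher in BAT, all but Des. The sequence before the start site is shown for 4 members, namely the regulator Myog, the structural genes Des and Actc1, and the receptor gene Chrna1. RefSeq windows of GRCm38.p6, from 250 bases before to 50 bases after the start site, were found for 9 members, with Myod1 not among them. The start sites of Actc1 and Mylpf lie 673 and 2718 bases inside the gene coordinates given above, and those of Tnnt1 and Myl1 407 and 348 bases. The 250 bases before the start are printed 5′ to 3′ on the strand of the gene, with each E-box (CANNTG, either strand) and each CArG box in capitals. They lie at chr1:134289754-134290003 (Myog), chr1:75360042-75360291 (Des), chr2:114052876-114053125 (Actc1) and chr2:73580339-73580588 (Chrna1).
Myog: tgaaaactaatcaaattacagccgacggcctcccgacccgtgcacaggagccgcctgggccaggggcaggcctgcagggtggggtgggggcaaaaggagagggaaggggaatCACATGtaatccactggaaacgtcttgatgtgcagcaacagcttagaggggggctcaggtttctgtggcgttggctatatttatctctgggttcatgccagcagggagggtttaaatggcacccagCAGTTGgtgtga
Des: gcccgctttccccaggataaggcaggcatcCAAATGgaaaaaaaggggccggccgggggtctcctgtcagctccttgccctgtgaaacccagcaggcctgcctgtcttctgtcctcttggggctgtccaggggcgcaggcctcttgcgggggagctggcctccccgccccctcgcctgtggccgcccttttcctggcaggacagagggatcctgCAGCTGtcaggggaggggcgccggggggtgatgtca
Actc1: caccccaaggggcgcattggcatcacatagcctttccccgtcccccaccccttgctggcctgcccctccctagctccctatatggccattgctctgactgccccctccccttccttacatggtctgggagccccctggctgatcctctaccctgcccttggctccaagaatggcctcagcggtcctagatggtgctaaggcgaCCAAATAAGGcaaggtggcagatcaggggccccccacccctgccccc
Chrna1: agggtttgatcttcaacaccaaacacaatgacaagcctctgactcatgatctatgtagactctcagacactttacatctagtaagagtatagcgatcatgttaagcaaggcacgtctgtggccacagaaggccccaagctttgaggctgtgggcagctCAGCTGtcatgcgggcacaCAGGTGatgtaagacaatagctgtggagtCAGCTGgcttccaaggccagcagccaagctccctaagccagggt

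Counted from the start site, Chrna1 held 3 E-boxes with their first bases at -92, -73 and -44, of which the outer pair read CAGCTG. Myog held E-boxes at -138 and -12, Des held them at -220 and -36, and Actc1 held a CArG box, the motif of the serum response factor, at -47. Of the 9 windows of 300 bases, 9 held at least 1 E-box, which 69.9% of all 23445 windows did, and 5 held more than 1, which 36.7% of all did. The form CAGCTG was found in 4 members (Des, Chrna1, Mylpf and Myl1) and in 16% of all windows, the form CACCTG, counted on both strands, in 2 members (Chrna1 and Tnnt1) and in 20.1%, and the CArG box in 1 member and in 1.53%. The MEF2 site was searched in a strict form only, which was in 0 of the 9 windows and in 0.58% of all. Variants of that form were not searched, so the windows, that of Myog included, are not shown to lack a MEF2 site. The CAGCTG and CACCTG forms are themselves E-boxes and are counted in both. These matches describe letters in a window and do not show binding.

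Levels are given in FPKM, which count sequenced fragments relative to transcript length and to library size, and differences as log2 of (FPKM + 1), on which scale the change of a low gene is understated. A gene was called where limma gave a p under 0.05, adjusted by Benjamini-Hochberg over all genes tested, with a fold change of at least 1.3. Between 12311 and 13125 genes per library reached an FPKM of 1, the depth in fragments is unknown, and replicates of a group correlated across genes with Pearson r of 0.985 to 0.988. H19 was read at 108, 160.4 and 122 FPKM in the 3 BAT siCtrl d0 libraries and at 2.82, 5.20 and 5.05 FPKM with siH19, that is, 3.35% of its control mean remained. At BAT d3 15.3% remained, at vWAT d0 10.3% and at vWAT d3 6.15%, and in each of the 4 settings the siH19 libraries lay below the siCtrl libraries. H19 itself was higher in BAT, at 130.3 ± 27.1 FPKM (SD, n = 3) against 11.7 ± 0.528 FPKM in vWAT siCtrl d0.

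Muscle transcripts were a feature of the brown depot. In BAT siCtrl cells at d0 the 10 members ranged from 3.47 FPKM for Myod1 to 366 FPKM for Mylpf, and their sum was 497 to 788 FPKM per library, against 37.7 to 48.4 FPKM in vWAT, where Des supplied most of it. Of the 10 members, 9 were called higher in BAT than in vWAT in siCtrl d0 (10.2% of all genes tested were) and 1, Des, was called lower (21% were). In siCtrl d3 all 10 were called higher (16.5%). In siH19 d0 9 were called higher (9.82%) and Des lower (20.6%), and in siH19 d3 all 10 were called higher (15.9%). A gene can enter these tests through the BAT libraries alone. Myod1, Myog, Myh3 and Chrna1 did so in all 4 comparisons and could not have been called lower. The same holds for Actc1 in both d3 comparisons, at 0.1513 to 0.467 FPKM in vWAT, and for Myl1 in siH19 d0, at 0.6302 to 0.8155 FPKM in vWAT. Tnnt1 in siCtrl d0, at 0.772, 0.806 and 1.207 FPKM in vWAT, needed BAT libraries to enter as well. For each member in each of these 4 comparisons the 3 BAT libraries lay wholly on 1 side of the 3 vWAT libraries. In siCtrl d0 18.6% of all genes tested lay wholly above and 40.3% wholly below, and in siCtrl d3 25.3% and 45.1%. In siH19 d0 these shares were 18.2% and 38.4%, and in siH19 d3 26.7% and 38.2%.

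**Figure D1:**
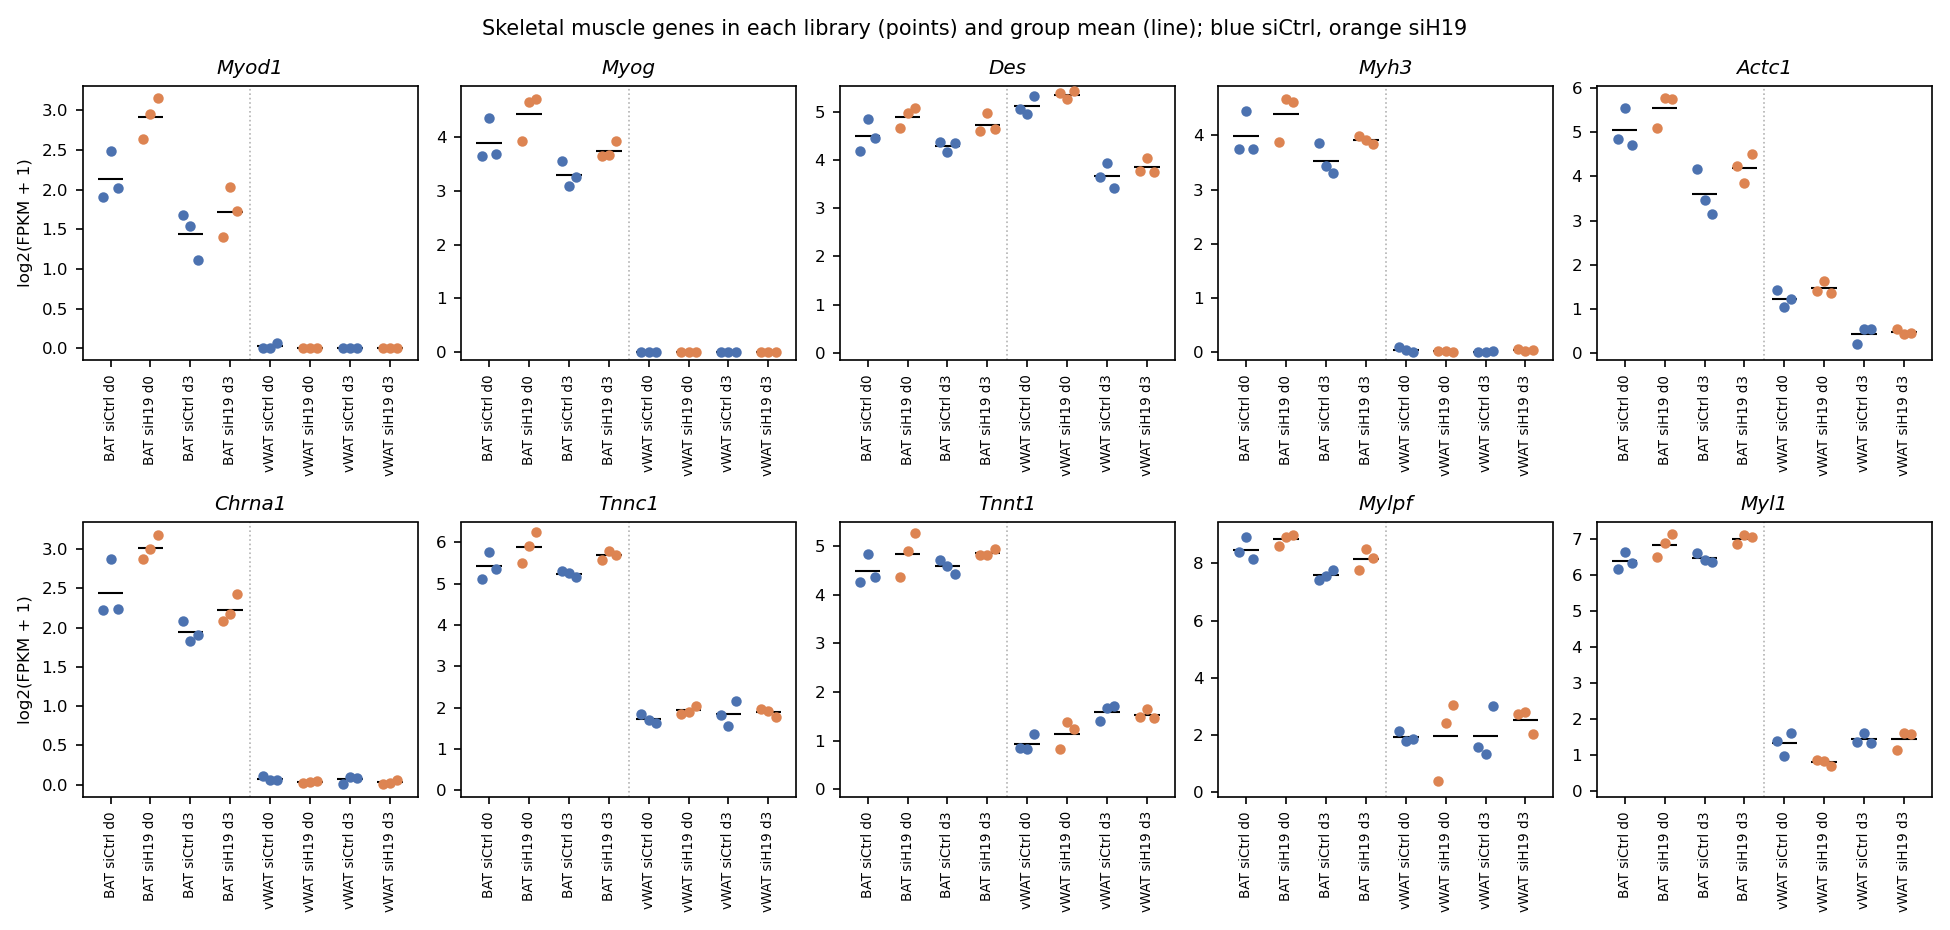
Levels of the 10 muscle genes as log2(FPKM + 1) in every library (points) with the group mean (line), by depot, day and siRNA (blue siCtrl, orange siH19), with a y axis of its own for each gene. In 9 of the 10 panels every BAT point lies above every vWAT point, whereas Des is higher in vWAT than in BAT at d0 and lower at d3.

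The regulators were detected in BAT and almost not at all in vWAT. Myod1 was at 2.76, 4.60 and 3.05 FPKM in BAT siCtrl d0, and in vWAT it was at 0.0501 FPKM in 1 siCtrl d0 library and listed at 0 in the other 11 of 12 libraries. Myog was at 11.6, 19.5 and 11.9 FPKM in BAT siCtrl d0 and listed at 0 in all 12 vWAT libraries. No fold change is given for these genes or for Myh3, which was listed at 0 in 4 vWAT libraries and reached at most 0.0626 FPKM there, and 100 genes of the table with a median of at least 5 FPKM are also listed at 0 in some library, so that 0 can be a failed estimate. The differences in siCtrl d0 passed the limma test for Myod1 (adjusted p = 9.12e-05), Myog (adjusted p = 1.53e-05) and Myh3 (adjusted p = 1.51e-05). These genes passed the filter on low values through the BAT libraries alone, so that only a higher call was possible and the p-values add little.

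The fast light chains Mylpf and Myl1 were the most abundant members in BAT siCtrl d0. Mylpf, the regulatory light chain of fast fibres, was at 335, 483 and 281 FPKM in BAT siCtrl d0 and at 3.43, 2.44 and 2.59 FPKM in vWAT, 130-fold by the ratio of means and 6.56 ± 0.204 (SE) on the log2 scale (adjusted p = 2.38e-06). Myl1, the fast alkali light chain, was at 71.3, 99.2 and 79.3 FPKM in BAT and at 1.65, 0.952 and 2.05 FPKM in vWAT, a ratio of means of 53.7. Tnnc1, the slow-fibre troponin C, was at 33.8, 53.8 and 40.0 FPKM against 2.58, 2.25 and 2.11 FPKM, a ratio of 18.4. The groups of these 3 genes lay far apart, with every BAT library above every vWAT library by a wide margin. Actc1 was at 27.8, 45.5 and 25.2 FPKM in BAT siCtrl d0 and at 1.71, 1.06 and 1.34 FPKM in vWAT, a ratio of means of 23.9. Tnnt1, the slow-fibre troponin T, was at 18.2, 27.5 and 19.6 FPKM against 0.806, 0.772 and 1.21 FPKM, a ratio of 23.4. Chrna1, the endplate receptor subunit, was low but almost confined to BAT among these 24 libraries, at 3.67, 6.32 and 3.71 FPKM against 0.00887 to 0.0771 FPKM over the 12 vWAT libraries.

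The depot difference was present again at d3. In siCtrl cells the ratio of BAT to vWAT means was 54.3 for Mylpf, 50.4 for Myl1, 32.3 for Actc1, 14.0 for Tnnc1 and 11.3 for Tnnt1. Mylpf was the least even of these in vWAT, at 1.97, 1.54 and 7.05 FPKM in siCtrl d3 and at 0.310, 4.39 and 7.28 FPKM in siH19 d0, and its 12 vWAT libraries all stayed below its lowest BAT library, 169.9 FPKM. The order of the means within BAT siCtrl d0 was Mylpf, Myl1, Tnnc1, Actc1, Des, Tnnt1, Myh3, Myog, Chrna1 and Myod1. Mylpf and Myl1 lay above all other members in each library, each gene from Tnnc1 to Myh3 overlapped in its libraries with the next in this order, and so did Chrna1 and Myod1. Myh3 shares sequence with the neighbouring myosin heavy chain genes and Actc1 with the other actins, and how reads common to such copies were assigned is not given in the sources used here.

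**Figure D2:**
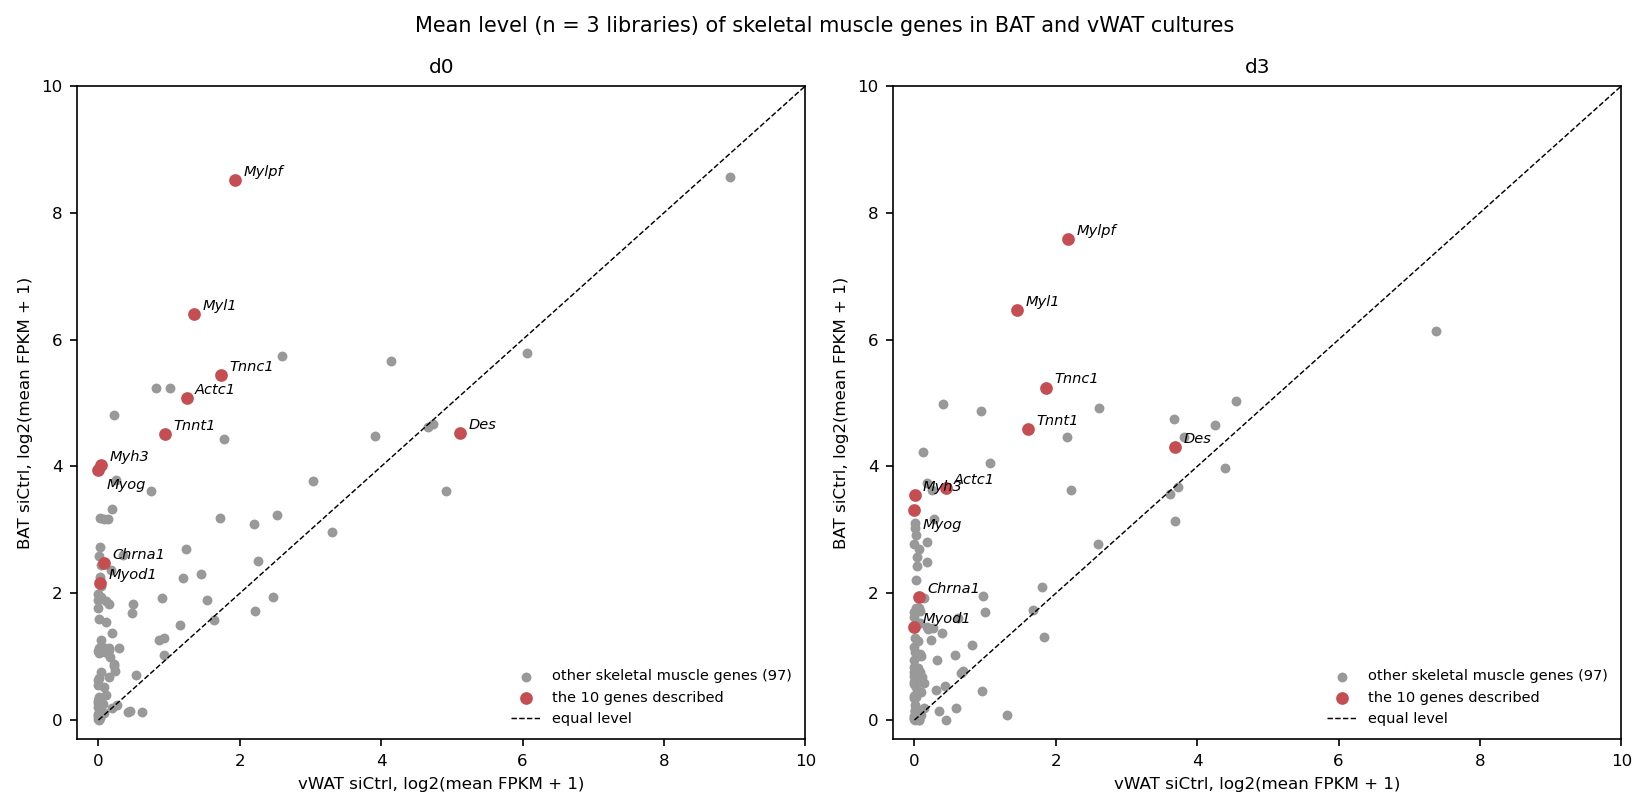
Mean level of each gene in vWAT siCtrl cells (x axis) and BAT siCtrl cells (y axis) as log2(mean FPKM + 1), at d0 and d3, with the 10 muscle genes in red, 97 other muscle genes in grey and a dashed line of equal level. At d0 the 9 members other than Des lie far above the line and Des below it, and at d3 all 10 lie above it.

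Des did not share this pattern. It was at 17.2, 27.9 and 20.9 FPKM in BAT siCtrl d0 and at 32.2, 30.1 and 39.0 FPKM in vWAT siCtrl d0, so that BAT was lower by a ratio of means of 0.652 (log2 -0.61 ± 0.179, adjusted p = 0.0292). At d3 the order turned, with 19.7, 16.9 and 19.4 FPKM in BAT siCtrl against 11.5, 14.3 and 9.66 FPKM in vWAT siCtrl, a ratio of 1.58 (log2 0.63 ± 0.138, adjusted p = 0.00637). With siH19 the difference was -0.46 ± 0.114 at d0 (adjusted p = 0.0165) and 0.88 ± 0.126 at d3 (adjusted p = 0.00117). The d0 calls of Des were not kept once libraries were rescaled by trimmed means, which gave -0.49 (adjusted p = 0.068) for siCtrl and -0.35 (adjusted p = 0.046, under the minimum fold) for siH19. In siCtrl d0 the call was also lost without BAT replicate 1 (adjusted p = 0.0662) or 3 (adjusted p = 0.0757) and without vWAT replicate 1 (adjusted p = 0.0637) or 3 (adjusted p = 0.088), and in siH19 d0 without BAT replicate 1 (-0.34, under the minimum fold) and without vWAT replicate 1 (adjusted p = 0.0508) or 3 (adjusted p = 0.056).

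Desmin is also made by smooth muscle and pericytes, and smooth muscle genes were read beside it. The summed level of 9 smooth muscle genes, with no skeletal muscle member among them, was 3390 to 3700 FPKM in BAT siCtrl d0 and 1520 to 1740 FPKM in vWAT siCtrl d0, and 446 to 616 FPKM against 991 to 1210 FPKM at d3. Of the 8 of these genes that were tested in siCtrl, 6 were higher in BAT at d0 and 7 lower at d3. Among all genes tested 10.2% were higher at d0 and 32.1% lower at d3. Des was lower in BAT at d0 and higher at d3, the opposite order to this sum. Their part in the level of Des was not tested. Across the 12 BAT libraries, the deviations of the mean of the 10 members from their group means correlated with those of the smooth muscle mean at Pearson r of 0.044, given as a description.

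Markers of other cells that a dissected depot can hold were read beside the members. The satellite cell list summed to 435 to 448 FPKM in BAT siCtrl d0, nearly all of it from Sdc4 (mean 378 FPKM) and Vcam1 (54.4 FPKM), which many other cells also make, and these stood at 490.2 and 65.8 FPKM in vWAT siCtrl d0. The satellite cell gene Pax7 reached at most 0.0638 FPKM in any BAT library, and Myf5, a determination factor of the lineage, stayed below 1 FPKM in every library and had means of 0.0636, 0.110, 0.299 and 0.526 FPKM in BAT siCtrl d0, siH19 d0, siCtrl d3 and siH19 d3. Myf6, a late regulator of the same family, had means of 0.156, 0.182, 0.935 and 1.63 FPKM in the same order and was listed at 0 in all vWAT libraries. The summed level of 8 heart genes was 0.259 to 4.03 FPKM over all 24 libraries, with Myh6, Nppa, Nkx2-5 and Ryr2 at a group mean of at most 0.0594 FPKM and Mybpc3 of at most 0.0782 FPKM. Group means of the others reached 0.875 FPKM for Myl7 and 1.61 FPKM for Nppb, both in BAT siH19 d0, and 3.46 FPKM for Tnni3 in vWAT siCtrl d3, while Actc1 and Tnnc1, which the heart also makes, were at 7.89 to 74.8 FPKM in BAT. The mesothelial list, for cells that line the visceral depot, summed to between 1.36 and 10 FPKM in BAT and 57.3 to 271 FPKM in vWAT. In bulk RNA, fewer cells of a type and less RNA per cell cannot be told apart, so none of these levels gives a number of cells.

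Other muscle genes were read in the same depot comparisons. Of 100 other muscle genes listed for this purpose (satellite cell genes, myogenic regulators, fusion and endplate genes, sarcomere genes, excitation and energy metabolism genes), 97 were in the table. In siCtrl d0, 40 of the 56 tested were higher in BAT and 3 were lower (10.2% and 21% of all genes tested). Their median log2 difference was 1.38 against -0.13 over all genes tested. In siCtrl d3, 37 of 47 were higher and 5 lower (16.5% and 32.1%). In siH19 d0 they were 51 of 63 and 3 (9.82% and 20.6%), and in siH19 d3 45 of 56 and 2 (15.9% and 25.2%). The filter on low values admits a gene through the BAT libraries alone, and one near 0 in vWAT could then only be called higher. These counts therefore lean towards BAT and are given as a description. The leading genes in siCtrl d0 were Tnnc2, the fast troponin C (27.0 ± 5.90 FPKM in BAT), Tnnt3, the fast troponin T (36.7 ± 10.6 against 0.758 ± 0.305 FPKM, log2 4.40 ± 0.219), and Tnni1, the slow troponin I (36.5 ± 9.52 against 1.02 ± 0.245 FPKM, log2 4.19 ± 0.188). Troponins of both fibre types were thus among the genes higher in BAT. Mb, encoding myoglobin, was second at d3, at 17.8 ± 2.45 FPKM in BAT and 0.0830 ± 0.0272 FPKM in vWAT (log2 4.11 ± 0.114). The 3 lower genes in siCtrl d0 were Cdh2, encoding N-cadherin (log2 -1.30 ± 0.066), Mylk2, the myosin light chain kinase of skeletal muscle (-0.54 ± 0.101), and Pygm (-0.49 ± 0.114).

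From d0 to d3 of adipogenic differentiation, the members of the BAT cultures parted. In BAT siCtrl cells 5 of the 10 fell (35.3% of all genes tested did), namely both regulators, Actc1, Chrna1 and Mylpf, and 5 did not pass the test. In BAT siH19 cells the same 5 genes were called lower (29.8%). Both siRNA arms were compared with their own d0 libraries, and no member was called higher in either.

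Actc1 changed by the largest ratio among the members in siCtrl. Its level went from 27.8, 45.5 and 25.2 FPKM at d0 to 16.9, 10.1 and 7.89 FPKM at d3, with no overlap (ratio of means 0.355, log2 -1.44 ± 0.313, adjusted p = 0.00496). Mylpf went from 335, 483 and 281 FPKM to 169.9, 187 and 217 FPKM, again with no overlap (ratio 0.522, log2 -0.90 ± 0.199, adjusted p = 0.00518). Myod1, at 2.76, 4.60 and 3.05 FPKM at d0, was at 2.21, 1.90 and 1.16 FPKM at d3 (ratio 0.506, log2 -0.70 ± 0.206, adjusted p = 0.0189). All 3 of these genes had their d3 libraries below every d0 library, as 43.2% of all genes tested did. Myog went from 11.6, 19.5 and 11.9 FPKM to 10.8, 7.48 and 8.51 FPKM (ratio 0.624, log2 -0.60 ± 0.218, adjusted p = 0.0406). Chrna1 went from 3.67, 6.32 and 3.71 FPKM to 3.25, 2.55 and 2.74 FPKM (ratio 0.624, log2 -0.50 ± 0.191, adjusted p = 0.048). In both of the last pair the highest d3 library lay just under the lowest d0 library, and their calls rested on single libraries and settings. Without BAT siCtrl d3 replicate 2 or 3 or d0 replicate 2, Myog had adjusted p = 0.119, 0.0974 and 0.0669 and Chrna1 adjusted p = 0.127, 0.11 and 0.062, and 3, 2 and 3 of the 10 members were called. Rescaling by trimmed means left 3 members called, Myod1, Actc1 and Mylpf, and fitting without the filter on low values left 2, Actc1 and Mylpf. The replicate block left 3 called, with Myog at adjusted p = 0.0761 and Chrna1 at adjusted p = 0.0758, and in 1 fit of all 24 libraries Mylpf was not called (adjusted p = 0.0991).

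**Figure D3:**
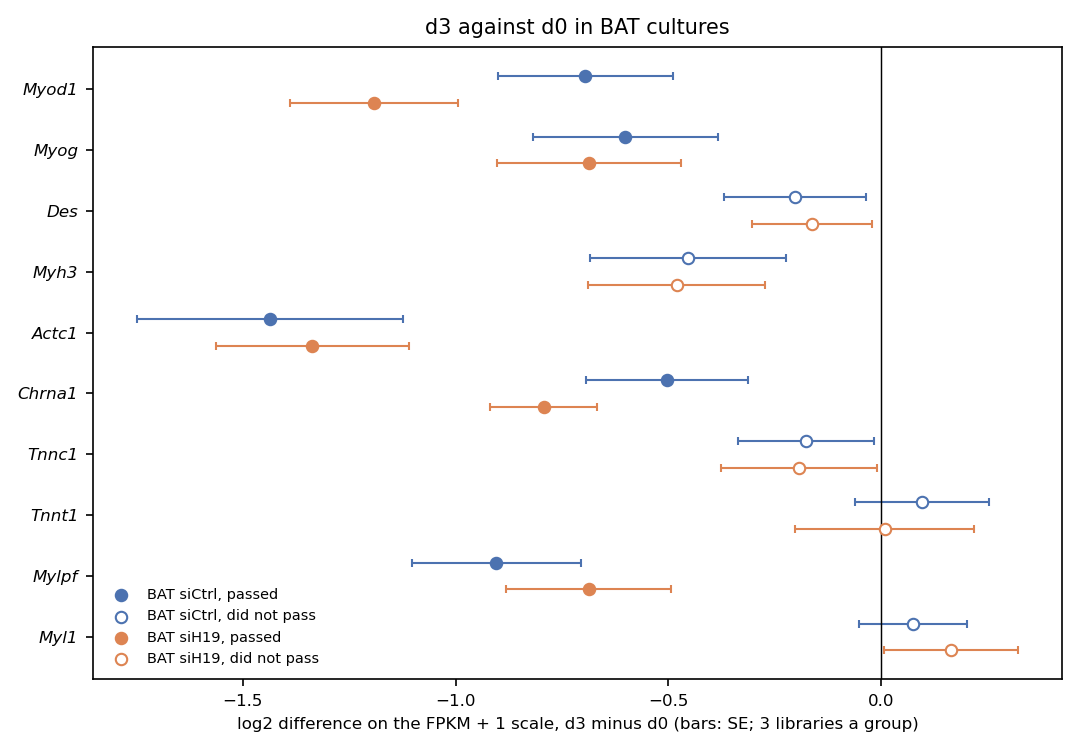
Difference from d0 to d3 as log2(FPKM + 1) in BAT cells with siCtrl and siH19, with the standard error, for the 10 muscle genes (filled symbols passed the test). Actc1 is at -1.44 and -1.34, Myod1 at -0.70 and -1.19, and Myl1 and Tnnt1 lie near 0 in both arms.

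The members that did not pass the test in BAT siCtrl were the troponins, Myl1, Myh3 and Des. Tnnc1 was at 38.8, 37.1 and 34.8 FPKM at d3 (log2 -0.18, adjusted p = 0.345), inside its range at d0. Tnnt1 was at 25.3, 23.2 and 20.6 FPKM (log2 0.10, adjusted p = 0.599) and Myl1 at 96.0, 84.2 and 81.3 FPKM (log2 0.08, adjusted p = 0.605), both inside their d0 range. Des was at 19.7, 16.9 and 19.4 FPKM (log2 -0.20, adjusted p = 0.302), and Myh3 at 13.5, 9.80 and 8.90 FPKM (log2 -0.45, adjusted p = 0.112), overlapping its d0 values. Myh3 was called lower in 1 fit of all 24 libraries (adjusted p = 0.0309).

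In BAT siH19 cells Myod1 went from 5.21, 6.78 and 7.87 FPKM to 1.64, 3.10 and 2.33 FPKM (log2 -1.19 ± 0.198, adjusted p = 0.00143). Actc1 went from 33.2, 53.2 and 52.2 FPKM to 17.6, 13.5 and 21.6 FPKM (log2 -1.34 ± 0.227, adjusted p = 0.00158), and Chrna1 from 6.36, 6.99 and 8.07 FPKM to 3.23, 3.52 and 4.37 FPKM (log2 -0.79 ± 0.126, adjusted p = 0.00114). The d3 libraries of these genes lay below every d0 library, as they did for 37.3% of all genes tested. Mylpf went from 394, 484 and 511 FPKM to 217, 366 and 293 FPKM (log2 -0.69 ± 0.194, adjusted p = 0.0166) and Myog from 14.2, 24.2 and 25.3 FPKM to 11.5, 11.6 and 14.3 FPKM (log2 -0.69 ± 0.216, adjusted p = 0.0254), the latter with overlapping libraries. Without siH19 d0 replicate 2 or 3 the calls of Mylpf (adjusted p = 0.0508 and 0.055) and Myog (adjusted p = 0.0802 and 0.0784) were lost, and 3 members were called. Myog was also not called without d3 replicate 1 (adjusted p = 0.0726) or 2 (adjusted p = 0.07), and Mylpf not in 1 fit of all 24 libraries (adjusted p = 0.211). Myh3 (-0.48, adjusted p = 0.0765), Tnnc1 (-0.19), Des (-0.16), Tnnt1 (0.01) and Myl1 (0.17) did not pass. Without d0 replicate 1, the lowest library of its group for all 10 members, Myh3 (-0.74, adjusted p = 0.000344) and Tnnc1 (-0.39, adjusted p = 0.0327) were called as well, and Myh3 also in 1 fit of all 24 libraries (adjusted p = 0.0242).

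The difference between the members was also read within each library, as the ratio to Myl1, a measure chosen after the values had been seen and given with no test. The ratio of Actc1 to Myl1 in BAT siCtrl was 0.318 to 0.459 at d0 and 0.097 to 0.177 at d3, and with siH19 0.369 to 0.455 and 0.0992 to 0.163. Mylpf stood at 3.55 to 4.87 times Myl1 at d0 and at 1.77 to 2.67 times at d3 in siCtrl, and at 3.66 to 4.38 and 1.88 to 2.69 times with siH19. The 2 fast light chains thus drew closer to each other in level in both arms. The ratio of Tnnt1 to Myl1 in siCtrl was 0.247 to 0.277 at d0 and 0.253 to 0.275 at d3, so that these ranges overlapped. Tnnt1 was the exception, as 8 of the 9 ratios lay wholly below their d0 range at d3 in each arm. Those of Tnnc1, Des and Myh3, which were not called on their own levels, were among them. Over all genes tested 38.6% did so in siCtrl and 34.3% in siH19. Myl1 itself changed by log2 0.076 in siCtrl, where only Tnnt1 stood higher, and by 0.165 in siH19, the highest of the members. Ratios to it therefore lean towards a fall. The members also varied with Myl1 from library to library, which narrows their ratios, so their count and the shares over all genes are not on equal terms.

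Other muscle genes of BAT were called in both directions over time. Of the list of other muscle genes, 22 of 58 tested were lower and 8 higher at d3 in BAT siCtrl, where 35.3% of all genes tested were lower and 29.9% higher. In BAT siH19 26 of 68 were lower and 11 higher, against 29.8% and 30.8% of all genes, with median log2 differences of -0.23 and -0.29 against -0.10 and -0.01 over all genes tested. Itga7, encoding an integrin of muscle and other cells, rose from 6.82 ± 0.935 to 31.7 ± 1.07 FPKM (log2 2.07 ± 0.095), and Myl6b, a light chain of nonmuscle myosin, from 7.56 ± 0.116 to 21.2 ± 0.674 FPKM. Sdc4, encoding syndecan 4, fell from 378 ± 8.94 to 69.7 ± 2.77 FPKM, and Vcam1, an adhesion molecule, from 54.4 ± 1.51 to 14.8 ± 2.42 FPKM. Mylk2, the myosin light chain kinase of skeletal muscle, fell from 2.82 ± 0.394 to 0.14 ± 0.0779 FPKM (log2 -1.74 ± 0.11, adjusted p = 9.29e-06). The smooth muscle list fell at the same time, with 8 of 8 tested genes lower in BAT siCtrl and a median of -2.76, and adipocyte marker sums were 3130 to 3410 FPKM at d0 and 37600 to 39300 FPKM at d3. As FPKM are relative to the library, the part of such abundant genes in the lower muscle values was not tested.

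In vWAT, where 6 members passed the filter on low values, Des and Actc1 fell in both arms. Des went from 32.2, 30.1 and 39.0 FPKM to 11.5, 14.3 and 9.66 FPKM in siCtrl (log2 -1.45 ± 0.152, adjusted p = 0.0002) and from 40.8, 37.3 and 42.3 FPKM to 12.6, 15.5 and 12.6 FPKM in siH19 (log2 -1.50 ± 0.095, adjusted p = 1.66e-05). Actc1, at 1.06 to 1.71 FPKM in siCtrl d0, was at 0.151 to 0.466 FPKM at d3 (log2 -0.80 ± 0.148, adjusted p = 0.00293), and with siH19 its difference was -0.99 ± 0.104 (adjusted p = 0.000187). These 2 lower calls of 6 stand beside 23.9% of all genes in siCtrl and 24.5% in siH19. The single higher call was Tnnt1 in siCtrl, from 0.928 ± 0.242 to 2.04 ± 0.329 FPKM (log2 0.66 ± 0.130, adjusted p = 0.00411, 26.3% of genes higher), and Myl1 in siH19, from 0.739 ± 0.0967 to 1.74 ± 0.457 FPKM (log2 0.64 ± 0.143, adjusted p = 0.00642, 28.2%). Both levels are near 1 FPKM and far below those of BAT.

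Whether the change over time differed between depots was tested by the interaction of depot and day in siCtrl cells, called at an adjusted p under 0.05 with no minimum fold. For Des the change from d0 to d3 was 1.24 ± 0.247 higher in BAT than in vWAT on the log2 scale (adjusted p = 0.00155, 24.9% of genes with a positive call). For Myod1 it was -0.67 ± 0.235 (adjusted p = 0.0337, 28.1% negative), in a depot comparison where vWAT was listed at 0 in 5 of its 6 libraries. The Myod1 term was not called with a pseudocount of 0.1 (adjusted p = 0.182), without the filter (adjusted p = 0.0644), or without BAT siCtrl d3 replicate 3 (adjusted p = 0.0674) or d0 replicate 2 (adjusted p = 0.0638), nor when any of the 6 vWAT libraries was left out (adjusted p = 0.0504 to 0.0613). Tnnt1 (-0.56, adjusted p = 0.0525) and Myog (-0.60, adjusted p = 0.0651) did not pass, and Myl1 was at -0.04 (adjusted p = 0.902).

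The knockdown comparisons asked whether cells with less H19 differ in the muscle genes. In BAT at d0, 0 of the 10 members were called (1.94% of genes in either direction were), while 3 had an unadjusted p under 0.05, namely Myod1, Chrna1 and Myl1. All 10 log2 differences were above 0, from 0.36 to 0.78, with a median of 0.46 against -0.03 over all genes tested. The members of a BAT library were high or low together at d0, so these 10 differences are not separate results. Myod1 was at 2.76, 4.60 and 3.05 FPKM with siCtrl and at 5.21, 6.78 and 7.87 FPKM with siH19 (log2 0.78 ± 0.193, adjusted p = 0.0886), and Chrna1 at 3.67, 6.32 and 3.71 FPKM and at 6.36, 6.99 and 8.07 FPKM (log2 0.58 ± 0.192, adjusted p = 0.17). In these 2 members the siH19 libraries all lay above the siCtrl libraries, as they did for 10.6% of all genes tested, and in the other 8 the groups overlapped. In 1 fit of all 24 libraries, which pools the spread over all groups, Myod1 (adjusted p = 0.00488) and Chrna1 (adjusted p = 0.00851) were called.

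At d3 in BAT, 3 of the 10 members were called higher with siH19 (6.39% of genes were). Myl1 was at 96.0, 84.2 and 81.3 FPKM in siCtrl and at 115, 136 and 133 FPKM in siH19 (log2 0.55 ± 0.088, adjusted p = 0.00991). Tnnc1 was at 38.8, 37.1 and 34.8 FPKM and at 46.2, 54.6 and 50.9 FPKM (log2 0.44 ± 0.075, adjusted p = 0.012). Des was at 19.7, 16.9 and 19.4 FPKM and at 23.2, 30.3 and 24.1 FPKM (log2 0.44 ± 0.114, adjusted p = 0.0457). In all 3 the libraries of the groups were separate, and in Myog and Tnnt1 they were as well, so that 5 members had every siH19 library above, against 24.2% of all genes tested. Des lost its call when any 1 of the 6 libraries was left out (adjusted p = 0.0579 to 0.143) and under trimmed-mean scaling (adjusted p = 0.066), no filter (adjusted p = 0.107), the replicate block (adjusted p = 0.107) and the fit of all 24 libraries (adjusted p = 0.0516). In the last of these Tnnc1 was at adjusted p = 0.0675 and Myl1 alone was called, while each fit with 1 library left out kept Tnnc1 at adjusted p = 0.0193 to 0.0475.

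**Figure D4:**
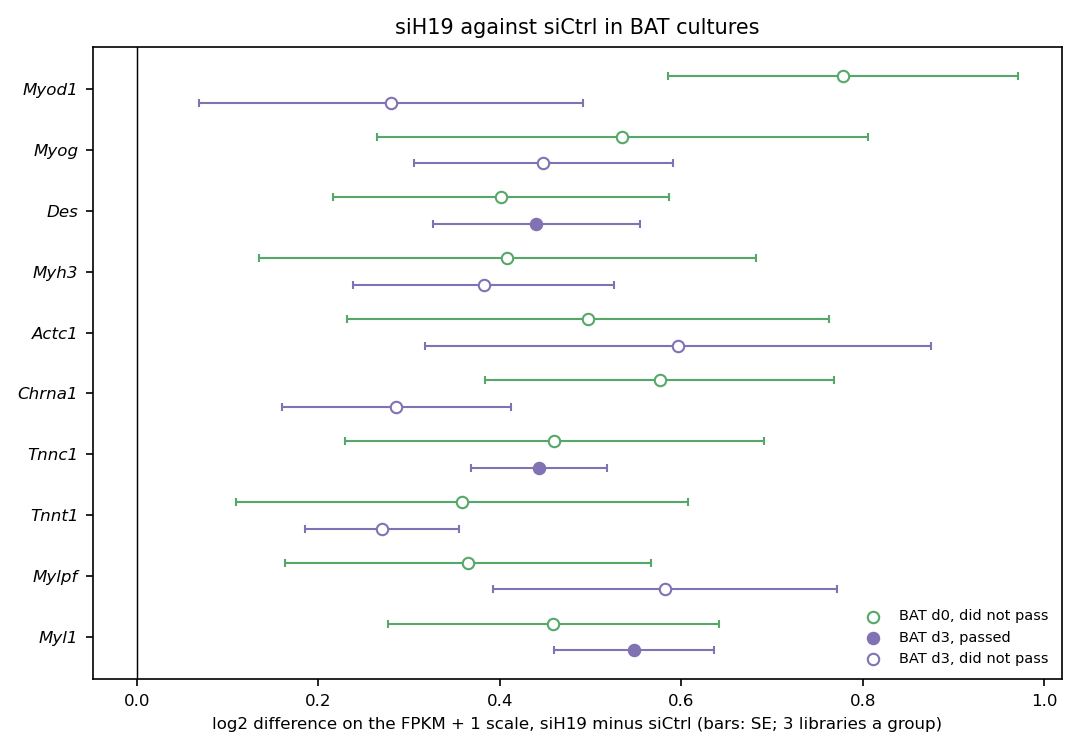
Difference between siH19 and siCtrl as log2(FPKM + 1) in BAT cells at d0 and d3, with the standard error, for the 10 muscle genes (filled symbols passed the test). All 20 differences lie above 0, and 3 of them passed, Des, Tnnc1 and Myl1 at d3. The genes varied together between libraries, so the differences are not separate results.

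The other 7 members at d3 had positive differences that did not pass. Mylpf was at 169.9, 187 and 217 FPKM with siCtrl and at 217, 366 and 293 FPKM with siH19 (log2 0.58 ± 0.190, adjusted p = 0.0875). Myog was at 10.8, 7.48 and 8.51 FPKM and at 11.5, 11.6 and 14.3 FPKM (log2 0.45 ± 0.143, adjusted p = 0.083), and Tnnt1 at 25.3, 23.2 and 20.6 FPKM and at 27.0, 27.0 and 29.6 FPKM (log2 0.27 ± 0.085, adjusted p = 0.0795). Actc1 (0.60, adjusted p = 0.203), Myh3 (0.38, adjusted p = 0.126), Chrna1 (0.29, adjusted p = 0.177) and Myod1 (0.28, adjusted p = 0.418) had overlapping libraries. Without siCtrl d3 replicate 1, the highest of its group for 9 members, Myog (0.58, adjusted p = 0.0418) and Myh3 (0.54, adjusted p = 0.0209) were called, and without siH19 d3 replicate 1 Mylpf was (0.78, adjusted p = 0.0285). The median over the 10 members was 0.44 and over all genes tested 0.05. The day-by-siRNA interaction in BAT called 0 of the 10 members (9.06% of genes in either direction), with 0 at an unadjusted p under 0.05. Its value for Myod1 was -0.50 ± 0.310, and those of the other 9 members ran from -0.29 to 0.22.

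Other cell type markers differed between the same BAT libraries. At d3 the smooth muscle sum was 446 to 616 FPKM with siCtrl and 1060 to 1270 FPKM with siH19. Of its genes, 5 of the 7 tested were called higher (6.39% of all genes were). The precursor stroma sum was 1070 to 1230 FPKM against 1420 to 1630 FPKM, the brown adipocyte sum 850 to 961 FPKM against 524 to 592 FPKM, and the macrophage sum 127 to 159 FPKM against 80.1 to 91.2 FPKM. At BAT d0 the adipocyte sum was 3130 to 3410 FPKM with siCtrl and 1580 to 2120 FPKM with siH19. Of its 7 genes 5 were called lower (1.32% of all genes were). The macrophage sum was 133 to 166 FPKM against 102 FPKM in each siH19 library. The part of these markers in the muscle gene differences was not tested. Of the other muscle genes, 9 of 58 tested were higher and 0 lower at BAT d3, against 6.39% and 2.18% of all genes tested. At d0 1 of 67 was higher and 0 lower, against 0.617% and 1.32%. At d3 the 3 with the largest change were Mef2c, a transcription factor of muscle and other tissues (2.89 ± 0.573 to 5.89 ± 0.463 FPKM, log2 0.83 ± 0.126, adjusted p = 0.00829), Smpx, a small costamere protein (5.48 ± 1.48 to 10.03 ± 1.29 FPKM, adjusted p = 0.0269), and Mb (17.8 ± 2.45 to 28.0 ± 3.35 FPKM, adjusted p = 0.0206). At d0 it was Sgca, encoding alpha-sarcoglycan, at 0.805 ± 0.153 and 2.45 ± 0.427 FPKM (log2 0.93 ± 0.132, adjusted p = 0.0262).

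In vWAT the knockdown called 0 of the 5 members that could be tested at d0 (1.53% of genes in either direction), with log2 differences of 0.03 to 0.25 and 1 unadjusted p under 0.05, that of Des. At vWAT d3 it called 0 of 5 (0.0305%), with differences of -0.06 to 0.55 and 0 unadjusted p under 0.05. The remaining members were below the filter in each case. The test of the difference between depots called 0 of 10 members at d0 (1.02%) and 0 of 10 at d3 (10.5%), with 3 members at an unadjusted p under 0.05 in each. Its largest values were those of Myl1, 0.99 ± 0.270 (adjusted p = 0.131) at d0 and 0.55 ± 0.185 (adjusted p = 0.0904) at d3. The d0 value also holds a lower Myl1 in vWAT with siH19, at 0.739 ± 0.0967 against 1.55 ± 0.557 FPKM, below the filter there. The BAT difference of Myl1 at d0 was 0.459. A knockdown effect confined to BAT was thus not shown for any member. Myod1, Myog, Myh3 and Chrna1 were at or near 0 in vWAT, so for them the term cannot tell such an effect from one that could not be measured there. The day-by-siRNA test in vWAT called 0 of 6 (1.73%), with 0 unadjusted p under 0.05. The knockdown, differentiation and depot comparisons share libraries, and their values are given side by side and not as separate evidence.

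Across the 8 groups, the mean was highest in BAT siH19 d0 for 8 members, in BAT siH19 d3 for Myl1 and in vWAT siH19 d0 for Des. Among the 4 BAT groups it was lowest in siCtrl d3 for 8 members, and in siCtrl d0 for Tnnt1 and Myl1. Neighbouring groups in this order mostly overlapped in their libraries. These counts are a description, as the members varied together and the order was not counted over all genes. The first group stood clear of the second for Myod1 and Chrna1 only, at 5.21 to 7.87 against 2.76 to 4.60 FPKM and at 6.36 to 8.07 against 3.67 to 6.32 FPKM.

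At d0 in BAT the members of a library were high or low together. In BAT siCtrl d0 replicate 2 was the highest of the 3 libraries for 10 of 10 members, with member sums of 534, 788 and 497 FPKM, and the highest over the lowest library was 1.39 to 1.81 for a member. In BAT siH19 d0 replicate 1 was the lowest for 10 of 10 members, with sums of 644, 835 and 912 FPKM. In BAT siCtrl d3 the sums were 396, 380 and 402 FPKM, and in siH19 d3 477, 660 and 586 FPKM. Over the 12 BAT libraries, deviations from the group means correlated with a median Pearson r of 0.762 over the 45 pairs of members, and 41 pairs were over 0.5. The strongest pair was Tnnc1 with Myl1 (0.977) and the weakest Actc1 with Mylpf (0.195). These values are descriptions over libraries that share depot and preparation, and pairs that share a library also share its scaling. Pairs of other genes were not examined, so moving together is not shown to be particular to the members.

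**Figure D5:**
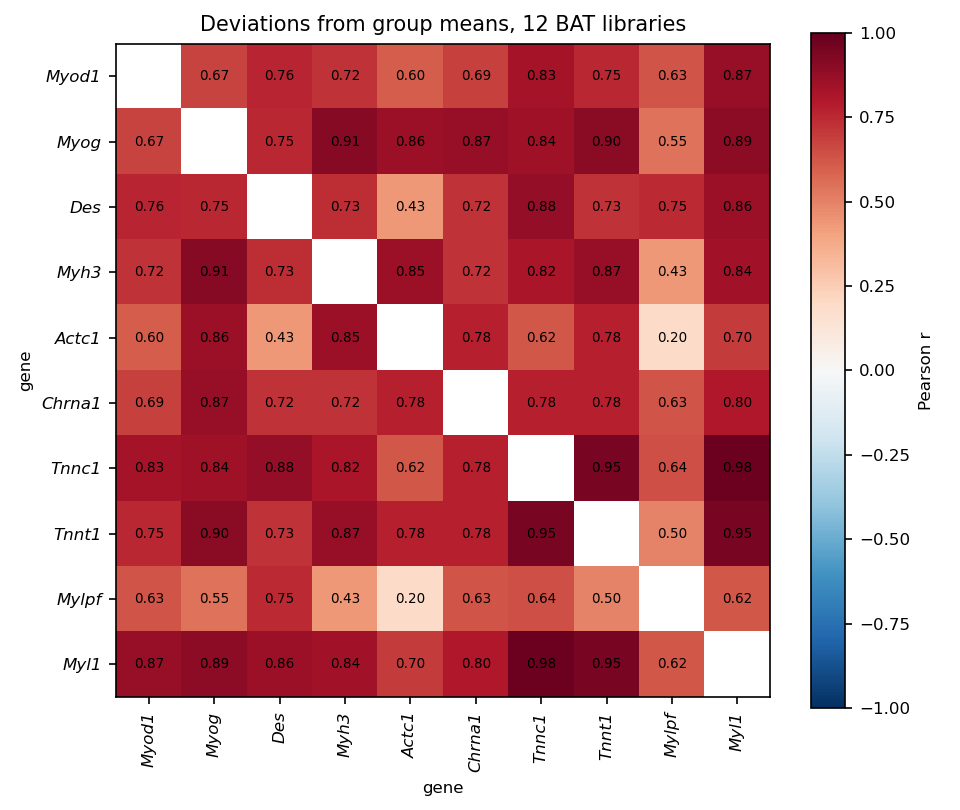
Pearson r between the 10 muscle genes over the 12 BAT libraries, from log2(FPKM + 1) after subtracting each gene's group mean. Tnnc1 and Myl1 share the darkest off-diagonal cell (0.977) and Actc1 with Mylpf the palest (0.195).

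Over all 24 libraries, r between the members other than Des was 0.923 to 0.998 for the 36 pairs, and with Des 0.033 to 0.303. The libraries fall into the 2 depots, between which no member other than Des overlapped. The genes outside the list with the profile most like the mean of the members, by Pearson r over the 24 libraries, were Tmem8c (myomaker, the fusion protein, 0.993), Tnnt2 (0.991), Tnni1 (0.990), Casq2 (0.990), Myhas (0.989), Myh1 (0.988), Tnni2 (0.987), Myh8 (0.986), Myl4 (0.986) and Actn2 (0.986). Tmem8c was at 4.17 to 13.3 FPKM in BAT and at most 0.0760 FPKM in vWAT, and Myh1 at 6.66 to 13.5 and at most 0.119 FPKM. Tmem8c was also nearest to Myog (0.999) and to Chrna1 (0.997). Myod1 had Myom1 (0.988) nearest, Actc1 had Murc (0.980), Mylpf had Tnnc2 (0.981), Myh3 had Myh1 (0.997), Tnnc1 had Actn2 (0.997), and Tnnt1 (0.990) and Myl1 (0.994) both had Mybph. The nearest to Des were Ifngr2 (0.921), Gclm (0.920) and Rab6a (0.909), none of which is restricted to muscle.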

How the data were processed

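The deposited table lists 49452 genes in 24 libraries. Per the labels and methods, the authors prepared poly-A directional libraries, aligned reads to GRCm38 with TopHat2 2.0.10 and computed expression with Cufflinks 2.2.1 on Ensembl genes within the QuickNGS workflow (versions from the processing notes, which also list STAR). Symbols were in the table for 20695 genes and matched by gene ID to reference names for 28503 more, H19 among them. The values the authors deposited carry no unit and were taken as FPKM, the unit the study gives, with column sums of 710794 to 841456. No counts were given, so depth, intervals and floors are unknown. As FPKM are relative, abundant genes that rise lower the others.

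Groups and replicate numbers came from the sample labels. The members and lists were chosen with earlier results of these data known. The linear model of limma 3.58.1 (R 4.3.3, intensity trend) used log2(FPKM + 1) of the 6 libraries compared, for genes with FPKM of at least 1 in at least 3, and interactions on 12 libraries. Adjustment was Benjamini-Hochberg over all genes tested, at 0.05 and 1.3-fold. The fit was tested on simulated data. There were 12 pairwise comparisons and 5 interactions.

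Alternatives were a pseudocount of 0.1, other filters, trimmed-mean scaling, 1 fit of all libraries, the replicate block, no minimum fold, and leaving out each library, which for interactions was added after the data were seen. The named genes were the 10 members, H19, at most 3 called genes of the muscle list in each direction, and the genes of most similar profile. Pax7, Myf5, Myf6 and the named heart genes are markers. Not every gene selected by the rule is printed. Of the muscle list 3 genes were not analysed here. Python 3.11.15, numpy 2.4.6, pandas 2.3.3 and matplotlib 3.10.9 were used.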

Additional observations from a re-analysis of the deposited data

Results flagged for a closer look

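The change from d0 to d3 differed between depots for 2 members in siCtrl cells, by the interaction of depot and day in limma with 12 libraries. For Des the difference of changes was 1.24 on the log2 scale (adjusted p = 0.00155). Its 3 libraries at vWAT d3 (9.66 to 14.3 FPKM) lay wholly below those at vWAT d0 (30.1 to 39.0 FPKM), while those at BAT d3 and d0 overlapped. For Myod1 the difference was -0.67 (adjusted p = 0.0337), with BAT at 2.76 to 4.60 FPKM at d0 and 1.16 to 2.21 FPKM at d3. In vWAT it was listed at 0 in 5 of 6 libraries, so that a fall there could not have been measured.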

How the results depend on the processing

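Of 1152 alternative values for 88 log2 differences of members, 1082 kept their direction and side of the threshold, 55 kept the direction but lost the call, 9 gained it and 6 turned direction, 0 of these among called differences. Member counts differed as follows. siH19 at BAT d0 went from 0 to 2 and at BAT d3 from 3 to 1 in 1 fit of all 24 libraries. BAT siCtrl from d0 to d3 went from 5 to 2 without a filter, to 3 with trimmed-mean scaling and to 3 with the replicate block. Depot by day went from 2 to 1 without a filter. Trimmed-mean scaling moved the mean of Des in BAT siCtrl d3 from 18.7 to 20.2 FPKM and of Tnnc1 from 36.9 to 39.9 FPKM, and the other 78 group means by less than 1 SD.

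With 1 library left out, called members ranged from 2 to 4 for siH19 at BAT d3, from 2 to 5 for d3 against d0 in BAT siCtrl, from 3 to 7 in BAT siH19, from 1 to 5 for depot by day and from 0 to 2 for depot by siRNA at d3. The term at d3 called 2 without BAT siCtrl d3 replicate 1. Depot by day called 1 without BAT siCtrl d3 replicate 3, d0 replicate 2, vWAT siCtrl d3 replicate 2 or 3, or d0 replicate 1 or 2, called 4 without BAT siCtrl d3 replicate 1 or d0 replicate 3, and called 5 without d0 replicate 1. Log2 changes that turned direction were not called: Tnnt1 (-0.016 to 0.269), Myl1 (-0.028 to 0.208) and Tnnc1 (-0.325 to 0.003) in BAT siCtrl, and Tnnt1 (-0.229 to 0.219) and Myl1 (-0.002 to 0.312) in BAT siH19. The cause of these changes was not tested.

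Trimmed-mean scaling raised the median difference of all genes between BAT and vWAT by 0.11 in siCtrl d0, 0.12 in siCtrl d3 and 0.10 in siH19 d0, and the share of higher among called genes from 32.8% to 48.3%, 33.9% to 45.7% and 32.3% to 46.2%. For siH19 that share went from 74.6% to 60.1% at BAT d3 and from 21.5% to 32.1% at vWAT d0. The replicate numbers did not pair the libraries, as same-numbered ones deviated together at r of -0.113 to 0.087, and every library correlated best with its own number in 1 of 12 comparisons, BAT against vWAT in siCtrl d0. The replicate block changed no member call other than Myog and Chrna1 in BAT siCtrl over time and Des in siH19 BAT d3. FPKM without counts limit what can be said of members near 0 in vWAT.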

Other observations

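Other genes of the muscle list also moved over time in vWAT. Of the 25 tested in siCtrl, 4 were higher and 13 lower at d3, against 26.3% and 23.9% of all genes tested, and in siH19 6 and 12, against 28.2% and 24.5%. Ncam1, encoding a neural and muscle cell adhesion molecule, was at 16.6 ± 0.675 FPKM at d0 and 3.44 ± 0.437 FPKM at d3 in vWAT siCtrl (log2 -1.99 ± 0.089, adjusted p = 4.12e-06 in limma), and Mylk2 at 4.55 ± 0.272 and 0.0937 ± 0.0457 FPKM. Myl6b rose there from 3.62 ± 0.683 to 13.1 ± 0.858 FPKM (log2 1.62 ± 0.119). With siH19 at vWAT d0, 1 of 25 was higher (0.329% of all genes were). This was Jph2, a junction protein of muscle membranes, at 3.79 ± 0.559 and 6.54 ± 0.662 FPKM (adjusted p = 0.0487 in limma). At vWAT d3 0 of 21 were called (0.0305%).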
